A study of Mus musculus with 29 samples.

Results

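Lungs of Klf15-knockout mice were compared with lungs of wild-type mice 4 h after dexamethasone, across all genes measured on the array. The samples were chosen by their titles: 4 arrays of knockout lung with dexamethasone at 4 h and 4 of wild-type lung with the same treatment, 8 of the 29 arrays of the series. The knockout mice were Klf15-/- and the wild-type mice carried the intact gene; all were C57BL/6 and 6 to 8 weeks old, and both groups received dexamethasone at 2.5 mg/kg. The comparison therefore sets the genotypes side by side in animals that all had the hormone, and does not show the effect of the hormone. No slide held arrays of both groups, so genotype and slide cannot be told apart within these 8 arrays. The other 21 arrays are the same genotypes with saline, or with either treatment at 8 h. They are used to ask whether a difference was also seen there. They also enter the estimate of spread behind each p-value, the filter on dim probes and the choice of a gene's probe. The labels describe biologic quadruplicates and do not say how they were housed or collected, so each p-value reflects only how far such samples lie apart. Whole lung was used, in which fewer cells of a type and less RNA per cell cannot be told apart.

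Klf15 is a zinc-finger transcription factor of the Krüppel-like family. The glucocorticoid receptor, encoded by Nr3c1, is the nuclear receptor that dexamethasone activates, and it switches on Klf15 directly in several tissues. In liver and muscle Klf15 is best known for driving the genes that break down amino acids, among them proline dehydrogenase and the branched-chain enzymes, so that carbon and nitrogen can be used for glucose synthesis and as fuel. Genes that the receptor and Klf15 both bind are a textbook case of a feed-forward circuit, and the series was made to examine that circuit in lung.

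In knockout lung 95 genes were lower and 43 were higher than in wild-type lung, of 15350 tested (limma, Benjamini-Hochberg adjusted p under 0.05; 0.899% called, 0.619% lower and 0.28% higher). Levels are log2 signals relative to the 75th percentile of the same array, and differences are knockout minus wild type on that scale. The falls were the larger: 27 called genes were lower and 6 higher by at least 2-fold (0.215% of genes tested), and the median over all genes tested was 0.04. At an unadjusted p under 0.05 there were 1602 genes (10.4%), of which 1116 were higher (7.27%) and 486 lower (3.17%), so rises outnumbered falls at that threshold. The arrays of the groups did not overlap for 933 genes (6.08%; 4.03% higher and 2.05% lower). In 4 lists of amino acid enzymes 19 of 80 tested members were lower and 1 was higher. These lists, like all lists here, were chosen with earlier results of these data known. Their counts are therefore a description, and part of any excess may come from that choice. The plot of all genes by difference and p-value shows the larger size of the falls.

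**Figure D1:**
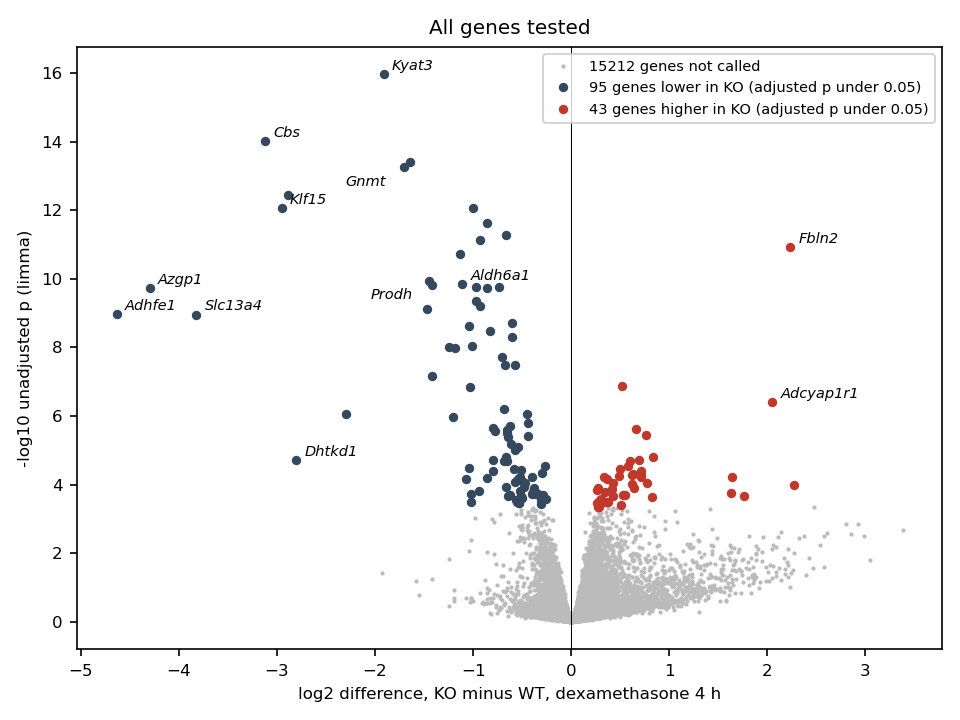
Each point is a gene. The x axis is the log2 difference of knockout minus wild-type lung, 4 h after dexamethasone (4 arrays each), and the y axis is minus log10 of the unadjusted p-value; coloured points are the 138 genes called, of which 95 were lower and 43 higher.

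Klf15 itself was read at 1.07, 1.27, 1.37 and 1.26 on the knockout arrays 57 to 60, against 4.18, 4.11, 4.2 and 4.29 on the wild-type arrays 49 to 52. Every knockout array was below every wild-type array, and the difference was -2.95 (SE 0.207, adjusted p = 1.9e-09, limma), or 7.74-fold. A further Klf15 probe differed by -3.27. The Klf15 signal was still well above background on all 4 knockout arrays, and the sources used here do not give which exons were deleted or where the probes lie. The glucocorticoid receptor gene Nr3c1 was not called: it was at 1.97, 2.17, 1.81 and 1.86 in knockout lung, against 1.97, 2.05, 1.78 and 1.80 in wild-type lung (difference 0.05, adjusted p = 0.929, limma).

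The 75th percentile of signal was 2080 ± 257 in knockout and 1991 ± 326 in wild type (SD, n = 4 each; two-sided exact permutation p = 0.657, the smallest possible being 0.0286), and 81.3 ± 2.89% against 78.2 ± 3.89% of probes were well above background (exact permutation p = 0.314). Outlier-flagged spots made up 0.284 ± 0.259% in knockout and 0.142 ± 0.0308% in wild type (SD, n = 4 each; exact permutation p = 0.257), and knockout array 58 stood apart at 0.671%, against 0.191% for the next knockout array. Pairs of arrays correlated at 0.973 to 0.991 within knockout, at 0.980 to 0.992 within wild type and at 0.966 to 0.990 between the groups, across genes. No slide held both groups, so no comparison within a slide could be made. Lung identity was clear in both: the summed linear level of the measured alveolar type 2 cell markers, the surfactant-making cells, was 186 to 227 times the 75th percentile in knockout and 178 to 214 in wild type, against 0.442 to 0.583 and 0.353 to 0.555 for markers of thymus, thyroid, esophagus and liver.

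Promoter windows of 3 genes that carry the main result are shown here, so that their letters can be set beside the values that follow: Cbs had the greatest fold fall among the amino acid enzymes that stayed measurable in knockout lung, Kyat3 had the lowest p-value of all genes, and Fah was among the falls that differed from those under saline. Each window runs from 250 bases before to 50 bases after the annotated start (RefSeq, GRCm38.p6), 5′ to 3′ on the gene's strand. Capitals mark CACCC and its complement GGGTG, the core letters of the box that Krüppel-like factors bind.
Cbs, chr17:31637156-31637455, minus strand: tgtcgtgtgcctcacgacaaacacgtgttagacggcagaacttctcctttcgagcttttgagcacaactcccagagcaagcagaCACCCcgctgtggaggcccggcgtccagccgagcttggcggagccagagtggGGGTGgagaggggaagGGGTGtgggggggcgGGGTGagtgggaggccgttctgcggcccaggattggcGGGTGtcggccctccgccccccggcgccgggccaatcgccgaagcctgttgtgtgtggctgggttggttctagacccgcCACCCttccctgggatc
Kyat3, chr3:142700798-142701097, plus strand: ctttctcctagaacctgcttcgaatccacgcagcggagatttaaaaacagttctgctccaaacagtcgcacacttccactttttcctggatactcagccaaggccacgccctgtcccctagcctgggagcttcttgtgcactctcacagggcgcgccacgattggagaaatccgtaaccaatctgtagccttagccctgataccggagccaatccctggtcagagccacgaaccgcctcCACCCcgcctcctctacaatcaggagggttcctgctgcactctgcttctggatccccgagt
Fah, chr7:84605893-84606192, minus strand: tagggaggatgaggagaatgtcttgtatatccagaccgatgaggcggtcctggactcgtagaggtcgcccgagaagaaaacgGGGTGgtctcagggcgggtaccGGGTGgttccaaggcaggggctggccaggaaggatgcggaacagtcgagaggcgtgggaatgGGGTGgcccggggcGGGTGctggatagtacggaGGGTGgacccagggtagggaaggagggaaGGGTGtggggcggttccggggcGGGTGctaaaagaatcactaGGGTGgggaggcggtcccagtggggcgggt
The Cbs window held 6 of these boxes, the Fah window 8 and the Kyat3 window 1. Windows of Aass, Prodh and Gnmt, also called lower and not printed here, held 0, 1 and 2.

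Counted over all genes with a window, CACCC or GGGTG occurred in 62 of the 74 called-lower genes that had a window (83.8%) and in 20 of 30 called-higher genes (66.7%), against 65.7% of genes tested and 57.5% of all windows of that length. The GC box, GGGCGG or CCGCCC, which shares a GC-rich makeup with it, was in 74.3% of called-lower and 60% of called-higher genes, against 60.1% of genes tested. The glucocorticoid receptor hexamer TGTTCT, or AGAACA, was in 13.5% and 13.3%, against 16.5%. These are counts of letters in short windows and do not show binding.

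Among enzymes of sulfur amino acids, glycine, serine and folate, 4 of 22 tested members were lower, 1 was higher and 17 were not called, against 0.899% of all genes called. The list's median was 0.00, against 0.04 over all genes. Cbs, cystathionine beta-synthase, which starts the conversion of homocysteine to cysteine, was at -5.18, -5.62, -5.02 and -4.82 in knockout lung, against -2.14, -2.20, -1.85 and -1.99 in wild-type lung. The difference was -3.12 (SE 0.177, adjusted p = 7.37e-11, limma), or 8.69-fold, with a wide gap between the groups. Over 24 alternative settings the difference of Cbs was -3.25 to -2.09 and it stayed called, so the fold depends on the setting. Gnmt, glycine N-methyltransferase, which uses up S-adenosylmethionine, was at 0.11, 0.21, 0.09 and -0.03 in knockout, against 1.82, 1.91, 1.75 and 1.72 in wild type, a difference of -1.71 (adjusted p = 2.12e-10, limma). Cth, cystathionine gamma-lyase, which acts after Cbs in the same pathway, differed by -1.04 (adjusted p = 1.37e-06). Mat1a, a methionine adenosyltransferase, differed by -0.52 (adjusted p = 0.0113; 0.0519 to 0.0541 without wild-type array 50 or knockout array 58 or 59). The member called higher was Mthfd1, a folate enzyme, at 0.62 (adjusted p = 0.0163; 0.0556 to 0.0694 without wild-type array 49 or 51 or knockout array 57 or 59), but its other probe gave -0.51, so its direction is not settled. Bhmt, which returns homocysteine to methionine, was not called (1.54, adjusted p = 0.30) and was above background on no wild-type array.

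Kyat3 and Aldh1l1 lie outside that list and were named for being among the 12 largest falls. Kyat3, a kynurenine aminotransferase that also acts on other amino acids, was at -0.75, -1.0, -0.88 and -1.03 in knockout, against 1.01, 0.88, 1.07 and 1.03 in wild type. The 4 arrays of each group lay within a narrow band, and the difference of -1.91 (SE 0.0879, adjusted p = 1.67e-12, limma) amounted to 3.77-fold. Aldh1l1, the cytosolic formyltetrahydrofolate dehydrogenase, was at 0.34, 0.28, 0.15 and 0.02 in knockout, against 1.5, 1.70, 1.92 and 1.57 in wild type (difference -1.47, adjusted p = 5.14e-07). Aldh1l1 lies within 10 Mb of Klf15 on chromosome 6, which is taken up further on.

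Transcripts of enzymes that break down lysine and tyrosine were lower at several steps, and of the listed tryptophan enzymes only Tdo2 was called. Aass, the bifunctional enzyme that opens the lysine pathway, was at 0.14, 0.26, 0.24 and -0.19 in knockout, against 1.16, 1.47, 1.12 and 1.26 in wild type, a difference of -1.14 (SE 0.093, adjusted p = 2.35e-08, limma). Fah, fumarylacetoacetate hydrolase, the last enzyme of tyrosine breakdown, was at -0.13, -0.19, -0.27 and -0.22, against 0.69, 0.69, 0.81 and 0.73 (difference -0.93, SE 0.0728, adjusted p = 1.14e-08). Gstz1, the isomerase just before Fah, was at 1.20, 1.09, 0.99 and 1.02 in knockout, against 2.02, 1.86, 1.96 and 1.89 in wild type (difference -0.86, adjusted p = 4.37e-09). For all 3 enzymes the groups were fully separate. Tdo2, the tryptophan dioxygenase of liver, differed by -1.02 (adjusted p = 0.0385), but the call ended when any of 7 of the 8 arrays was left out (adjusted p 0.0578 to 0.115; all but knockout array 58). Of the 12 tested members of the 17 listed, these 4 were lower and none was higher (median -0.31), against 0.619% of all genes lower and 0.28% higher (median 0.04). Dhtkd1, which acts late in lysine breakdown, was not well above background on any knockout array, and at -8.19, -8.09, -7.30 and -7.82 in knockout, against -5.10, -5.29, -4.67 and -5.13 in wild type, it was at least 5.54-fold lower (adjusted p = 0.005; 0.062 with slide as a fixed block). The bound takes, on each knockout array, the dimmest probe still well above background, and it holds for the main processing only. Over the alternatives the difference of Dhtkd1 was -3.05 to -0.79, so the size of its fall is not settled.

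Among the branched-chain enzymes, which dismantle leucine, isoleucine and valine in mitochondria, 6 of 24 tested members were lower and none was higher, with a median of -0.22. Over all genes tested 0.619% were lower and 0.28% higher, with a median of 0.04. Bckdhb, a subunit of the branched-chain keto acid dehydrogenase that commits these carbons to breakdown, was at 0.51, 0.33, 0.42 and 0.32 in knockout, against 1.03, 1.02, 1.11 and 1.06 in wild type (difference -0.66, SE 0.0508, adjusted p = 9.2e-09, limma). Aldh6a1, the methylmalonate semialdehyde dehydrogenase of the valine branch, was at 2.55, 2.80, 2.51 and 2.33, against 3.62, 3.68, 3.71 and 3.62 (difference -1.11, adjusted p = 1.51e-07). Groups did not overlap for either. Echs1, the short-chain enoyl-CoA hydratase, differed by -0.60 (adjusted p = 2.64e-06), Ivd, isovaleryl-CoA dehydrogenase of the leucine branch, by -0.57 (adjusted p = 1.49e-05), and Ppm1k, the phosphatase that activates the dehydrogenase complex, by -0.80 (adjusted p = 0.00884). Mccc2, a methylcrotonyl-CoA carboxylase subunit, was the weakest, at -0.52 (adjusted p = 0.0236; 0.0568 to 0.111 without any of wild-type arrays 49, 50 and 52 and knockout arrays 57 to 59). Bcat2, the mitochondrial branched-chain transaminase, gave a call that turned on the setting. It was at -1.94, -2.16, -2.21 and -1.09 in knockout, against -0.81, -1.08, -1.07 and -1.30 in wild type, and the groups overlapped at knockout array 60. Its brightest probe differed by -0.79 (adjusted p = 0.0928, limma). With slide in the fit the adjusted p was 0.023 (fixed block) or 0.01 (random block). Its other probes gave -0.91 (limma, adjusted p = 0.0004 over all probes) and -0.14 (adjusted p = 0.956). The dehydrogenase subunits Bckdha, at -0.41 (adjusted p = 0.0865), and Dbt, at -0.98 (adjusted p = 0.0795), were not called. The summed linear level of the 24 members was 77.0 to 98.4 in knockout and 101 to 118 in wild type.

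Proline and nitrogen-handling enzymes gave 5 falls and no rise among 22 tested, against 0.619% of all genes lower and 0.28% higher, although the list's median was 0.00. Prodh, proline dehydrogenase, was at 1.82, 1.68, 1.25 and 1.33 in knockout, against 2.66, 3.12, 3.22 and 2.88 in wild type, so that the highest knockout array stayed below the lowest wild-type one. The difference was -1.45 (SE 0.13, adjusted p = 1.33e-07, limma), or 2.73-fold. Aldh4a1, which takes the product of Prodh on to glutamate, differed by -0.70 (adjusted p = 8.95e-06) on its brightest probe, whereas its other probe gave 0.18 and was not called. Abat, which breaks down GABA, differed by -0.69 (adjusted p = 0.00025), and Ass1, argininosuccinate synthase of the urea cycle, by -0.65 (adjusted p = 0.00505). Gpt, alanine aminotransferase, differed by -0.55 (adjusted p = 0.0128; 0.0542 and 0.0576 without wild-type array 50 or knockout array 60). The other 17 members were not called.

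**Figure D2:**
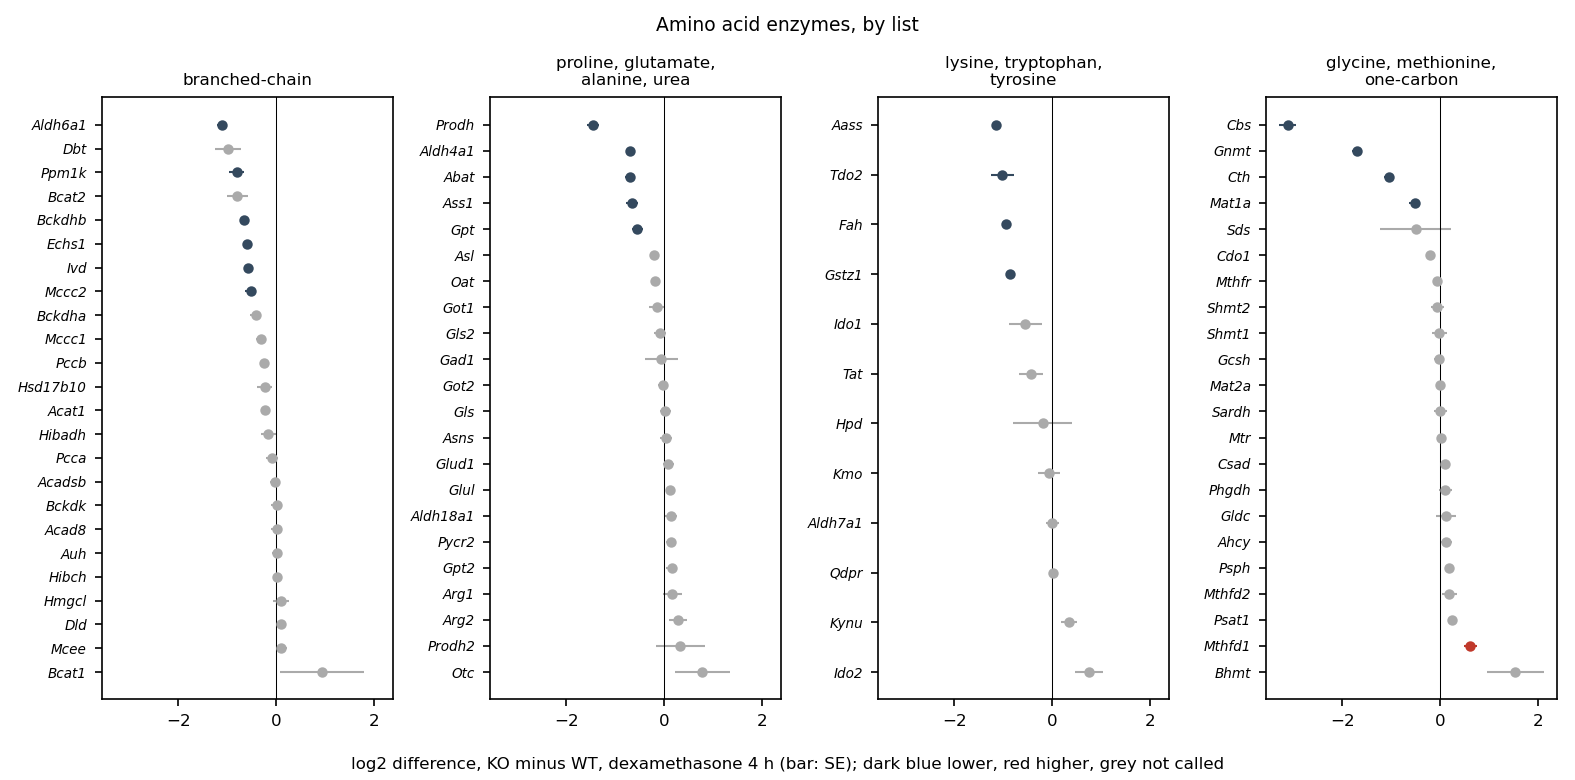
Points are the tested members of 4 amino acid enzyme lists, grouped by list; the horizontal axis is the log2 difference of knockout minus wild-type lung 4 h after dexamethasone, with bars of 1 SE from the fit, and coloured points are genes called. Cbs at -3.12 and Gnmt at -1.71 stand farthest to the left, while most members lie near the vertical line at 0.

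Of 10 genes reported as Klf15 targets in other tissues, Prodh and Gpt were lower and none was higher (median -0.37), against 0.619% of all genes lower and 0.28% higher. Slc2a4, the insulin-regulated glucose transporter, was at -0.78 without passing (adjusted p = 0.27, limma). Among amino acid transporters, 1 of 21 was lower and 1 higher (median 0.01), against the same shares. Slc43a1, a carrier of large neutral amino acids, differed by -0.53 (adjusted p = 0.0391), and the call ended without any of 7 of the 8 arrays (all but wild-type array 49; adjusted p 0.0505 to 0.137). Slc38a4, a sodium-coupled amino acid transporter, was at 1.47, 1.30, 1.41 and 1.44 in knockout, against 0.70, 0.85, 0.69 and 0.85 in wild type, a difference of 0.63 in the opposite direction from the enzymes (adjusted p = 0.01, limma), and its other probe gave 0.54 without passing. Mitochondrial carriers outside these lists were also called: Slc25a29, a carrier of basic amino acids, at -0.64 (adjusted p = 0.00119), and Slc25a38, the glycine carrier used in heme synthesis, at -0.61 (adjusted p = 1.15e-06). These carriers were picked from the called genes after their values were seen.

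The very largest falls lay outside amino acid breakdown. Adhfe1, a mitochondrial transhydrogenase of hydroxy and oxo acids, was at -8.88, -7.72, -7.78 and -9.18 in knockout, against -3.58, -4.30, -3.01 and -4.13 in wild type. It was well above background on no knockout array and on all 4 wild-type arrays, and was at least 12.9-fold lower (adjusted p = 7.04e-07, limma), while its dimmest probe gave -0.99 and was not called. Azgp1, a secreted zinc-binding glycoprotein linked to fat mobilisation, was at -4.30, -5.30, -4.00 and -3.41 in knockout, against 0.18, 0.11, -0.02 and -0.08 in wild type, 19.7-fold lower (difference -4.30, adjusted p = 1.51e-07). Over the alternatives the difference of Azgp1 was -4.58 to -3.47. Slc13a4, a sodium-sulfate cotransporter, was at -3.76, -4.31, -4.25 and -3.64, against -0.64, -0.08, 0.08 and -0.02 (difference -3.82, adjusted p = 7.04e-07). The groups were far apart for all 3. Lrtm2, a leucine-rich repeat membrane protein, was at -3.37, -3.35, -3.48 and -3.04, against -0.60, -0.52, -0.21 and -0.35 (difference -2.89, adjusted p = 1.13e-09). Sfxn2, a mitochondrial transporter of the sideroflexin family, differed by -1.64 (adjusted p = 2.01e-10), and its other probe gave -1.63. Nat8f5, an acetyltransferase-family gene, was above background on 1 of the 4 knockout arrays. It was at -7.48, -8.47, -6.90 and -7.52 in knockout, against -5.80, -5.10, -5.41 and -4.87 in wild type, so the groups were separate (adjusted p = 0.00033), but the size of the fall is not settled: the difference was -2.53 to -0.62 over the alternatives.

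**Figure D3:**
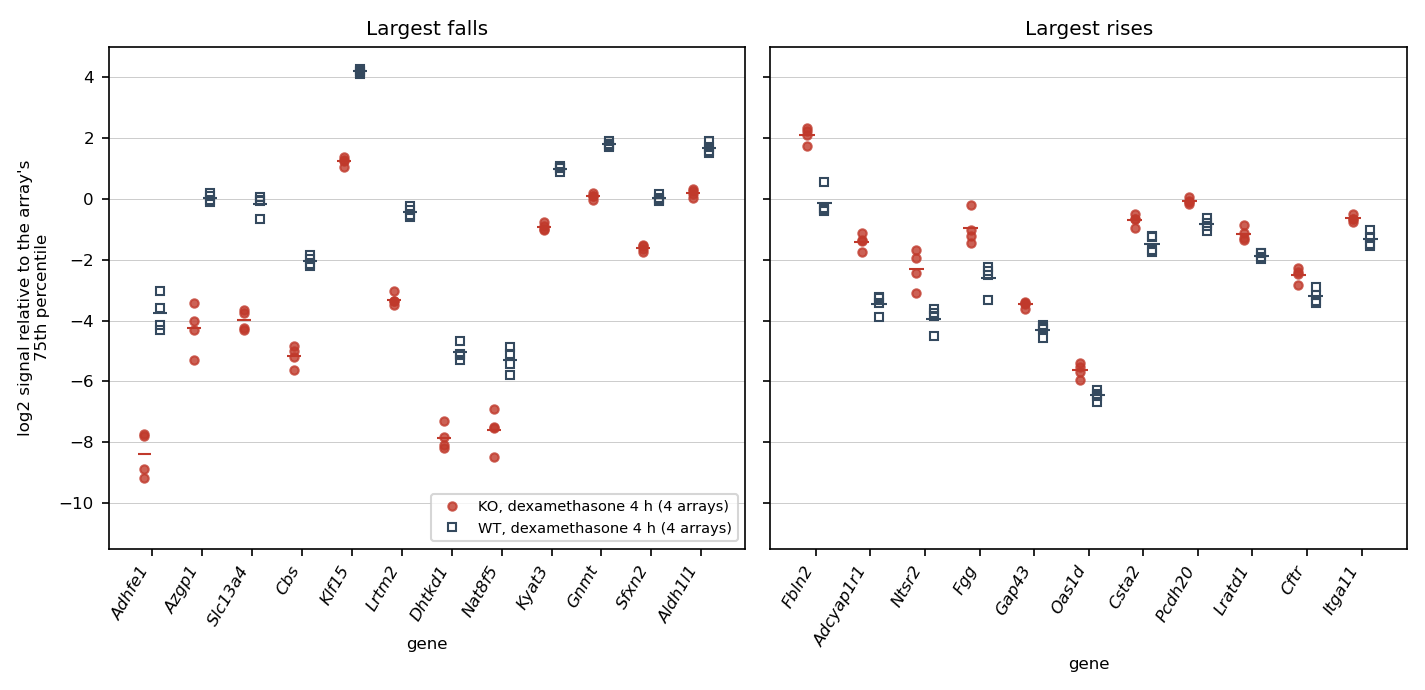
Each point is 1 array, with knockout left of wild type for every gene; the vertical axis is the log2 level (75th percentile of the array at 0), and short lines are group means. The largest falls and rises among the genes called without overlap are shown, and the falls of Adhfe1, Azgp1 and Slc13a4 exceed every rise in size.

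Transcription factors and fuel genes were among the smaller falls. Ppara, the nuclear receptor that drives fatty acid oxidation, was at -2.10, -2.16, -2.24 and -2.11 in knockout, against -1.20, -1.12, -1.12 and -1.28 in wild type, a difference of -0.97 (SE 0.0894, adjusted p = 1.51e-07, limma). Acot1, an acyl-CoA thioesterase that is a classical Ppara target, differed by -1.42 (adjusted p = 3.01e-05). They were the only 2 of 30 tested fatty acid oxidation and fuel-switch genes called, against 0.899% of all genes, and the list's median was -0.08. Mlxipl, the carbohydrate-response transcription factor, differed by -0.93 (adjusted p = 4.48e-07), and Ehhadh, a peroxisomal oxidation enzyme, by -0.44 (adjusted p = 0.000557); both were picked after their values were seen. Of 16 Krüppel-like factors, Klf15, the deleted gene itself, and Klf10 were called, against the same 0.899%. Klf10 differed by -0.65 (adjusted p = 0.0286, limma), and its call ended without any of wild-type arrays 49, 51 and 52 and knockout arrays 59 and 60 (adjusted p 0.0519 to 0.127). The circadian clock list had 15 of 18 members below 0 and a median of -0.16, where 5846 of all 15350 genes were below 0. Of its members 1 was called, lower.

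The rises were fewer, smaller and less stable. Fbln2, a secreted matrix protein of the fibulin family, was at 2.24, 2.12, 2.33 and 1.76 in knockout, against -0.35, 0.55, -0.28 and -0.41 in wild type, 4.7-fold higher (difference 2.23, SE 0.179, adjusted p = 1.69e-08, limma). Adcyap1r1, the receptor of the neuropeptide PACAP, was at -1.12, -1.38, -1.36 and -1.73, against -3.23, -3.26, -3.42 and -3.89 (difference 2.05, adjusted p = 0.000155). Both groups were separate for these genes, although the dimmest probe of Adcyap1r1 gave 0.68 and was not called. Ntsr2, a neurotensin receptor, was at -1.68, -1.95, -3.09 and -2.42, against -3.60, -4.51, -3.85 and -3.76 (difference 1.64, adjusted p = 0.0113; 0.0515 to 0.0608 without wild-type array 50 or knockout array 57 or 58). Fgg, the gamma chain of fibrinogen, was at -1.02, -0.19, -1.43 and -1.23, against -2.36, -2.23, -2.49 and -3.33 (difference 1.63, adjusted p = 0.0267; 0.0637 to 0.135 without wild-type array 51 or 52 or knockout array 57 or 58). Knockout arrays spread widely for this pair, and with slide as a fixed block each had an adjusted p of 0.081.

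Among the remaining named rises, Gap43, a growth-cone protein of nerve fibres, was at -3.61, -3.43, -3.45 and -3.39 in knockout, against -4.21, -4.59, -4.29 and -4.15 in wild type (difference 0.84, adjusted p = 0.00436, limma). Pcdh20, a protocadherin, differed by 0.77 (adjusted p = 0.00109), Itga11, a collagen-binding integrin subunit, by 0.69 (adjusted p = 0.005), and Cyp2c23, an arachidonic acid epoxygenase chosen after its value was seen, by 0.66 (adjusted p = 0.00078). Cftr, the chloride channel of airway epithelium, was at -2.42, -2.47, -2.27 and -2.83 in knockout, against -3.35, -2.90, -3.43 and -3.15 in wild type, a difference of 0.71 (adjusted p = 0.0113). The gap between the nearest arrays of the groups was small, and the call ended without wild-type array 49 or 51 or knockout array 59 (adjusted p 0.0519 to 0.0645, limma). Cftr was the 1 called of 18 epithelial ion and water transport genes (median 0.06), against 0.899% of all genes. Lratd1 at 0.71 (adjusted p = 0.0111; 0.0504 without knockout array 60), Csta2, a cysteine protease inhibitor, at 0.78 (adjusted p = 0.0159; 0.0646 to 0.0772 without wild-type array 50 or 52 or knockout array 58) and Oas1d at 0.82 (adjusted p = 0.0293; above 0.05 without any of 6 arrays, 0.0657 to 0.0944; all but wild-type array 49 and knockout array 58) were also called. With slide as a fixed block the adjusted p was 0.156 for Cftr, 0.185 for Oas1d, 0.075 for Csta2, 0.059 for Pcdh20 and 0.052 for Lratd1, so these calls ended there.

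Signals leaned upwards in knockout lung at every level, with the largest median in the dimmest genes, and this is given beside the rises. In the 3070 dimmest genes tested the median difference was 0.21 and 72.7% were above 0, and at an unadjusted p under 0.05 there were 251 higher against 22 lower. In the other 4 sets of 3070 genes, ordered by level, the medians were 0.02 to 0.04. Of the brightest set 66% were above 0, with 242 higher against 90 lower at the same unadjusted threshold. With the share of probes above background as a covariate, the median was -0.02 in the dimmest set and 0.08 in the brightest. Of those dimmest genes 6 were called higher and 8 lower. Leaving out knockout array 58, whose share of outlier-flagged spots was 0.671%, left 16 genes higher and 76 lower. The part of signal strength in single rises was not tested.

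Of 33 tested genes that glucocorticoids are known to induce in most tissues, none was called, where 0.899% of all genes were, so that a count of 0 in a list of this size lies near the background. The median was 0.04 and the members ran from -0.43 to 0.34. At 8 h of dexamethasone 9 of the 33 were higher in knockout (median 0.25), against 3.02% of all genes. At 4 h the change from the saline difference was called for 6 of the 33, which lies near the 16.3% of all genes tested. Per1, a clock gene with a receptor site in its promoter, was at 2.72, 2.93, 2.66 and 2.73 in knockout, against 2.67, 2.80, 3.0 and 2.82 in wild type (difference -0.06, adjusted p = 0.972, limma), and Fkbp5, a cochaperone of the receptor, differed by 0.24 (adjusted p = 0.938). Mt2, a metallothionein, was at 5.98, 5.78, 5.94 and 5.35 in knockout, against 5.49, 5.81, 5.57 and 5.39 in wild type (difference 0.20, adjusted p = 0.809). The groups overlapped for Per1 and Mt2. None of the 15 genes of the receptor and its cochaperones was called, nor any of the 22 fatty acid and cholesterol synthesis genes, against the same 0.899%. Hmgcs1, a cholesterol synthesis enzyme, was at 2.81, 3.13, 2.76 and 2.61 in knockout, against 2.44, 2.48, 2.40 and 2.47 in wild type, without overlap. Its difference was 0.38 (adjusted p = 0.052, limma), and with slide in the fit the adjusted p was 0.0085 (fixed block) or 0.0037 (random block). Its other probe gave -0.06. Immediate-early genes, heat shock genes, xenobiotic and redox enzymes, metallothioneins, FoxO and insulin-pathway brakes, oxidative phosphorylation subunits, cytokines and chemokines, interferon-stimulated genes and MHC class II genes had no member called either, and the medians of these 9 lists were -0.08 to 0.09. With slide as a block, 2 of their members were called lower: Gstm2, a glutathione transferase, at an adjusted p of 0.0366 (fixed) and 0.011 (random), and Insr, the insulin receptor, at 0.0353 and 0.011; the other probe of Insr differed by 0.01.

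Markers of cell types that lung samples hold were read the same way, against 0.899% of all genes called. For T, B and NK cells, neutrophils, macrophages, alveolar type 1 and type 2 cells, club and ciliated cells, endothelium, smooth muscle, collagens, adipocytes, red cells, and heart and skeletal muscle, no tested member was called in either direction. With lists of 7 to 26 genes, a count of 0 lies near the background. At 8 h of dexamethasone 3 of 11 smooth muscle and pericyte markers, 4 of 26 collagen and matrix genes and 2 of 15 monocyte, macrophage and dendritic cell markers were higher in knockout, against 3.02% of all genes tested. Alveolar type 1 and club and ciliated cell markers had 1 higher each and endothelium 1 lower at 8 h. The rest of these lists had no member called there. The largest of their 8 h medians were 1.25 for heart muscle and 0.82 for adipocyte markers, against 0.04 over all genes. The summed levels at 4 h overlapped between the groups: T cell markers summed to 3.37 to 4.12 in knockout and 3.44 to 5.0 in wild type, and heart muscle markers, which enter lung samples with the pulmonary veins, to 21.3 to 50.1 and 26.0 to 53.9. Among 22 proliferation genes Rrm2, a ribonucleotide reductase subunit, was lower at -1.04 (adjusted p = 0.00739; 0.09 in a fit on the 8 arrays alone), while the median of the list was 0.18.

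The same genotypes at 8 h of dexamethasone, on other arrays, gave a repeat. All 95 genes lower at 4 h were below 0 at 8 h, and 75 of them were called there; of the 43 higher, 37 were above 0, 19 were called and 1, Angpt2, was called in the opposite direction. At 8 h 4.92% of all genes tested were called (3.02% higher, 1.9% lower), and of genes not called at 4 h 57.2% had the same sign at both times. Cbs was at -3.55, Kyat3 at -1.69, Prodh at -1.46 and Fbln2 at 2.60 at 8 h. The difference between the times was itself called for 1 gene of 15350 (0.00651%), and 1575 had an unadjusted p under 0.05 (10.3%, limma). That gene was Bckdhb, whose difference was -1.23 at 8 h, so the 4 h value was 0.57 nearer to 0 (adjusted p = 0.0017). Angpt2, a vessel-destabilising ligand, was at -0.054, 0.38, 0.32 and 0.33 in knockout and -0.35, -0.19, -0.01 and -0.19 in wild type at 4 h, where the groups overlapped (difference 0.43, adjusted p = 0.029; 0.0627 to 0.135 without any of 6 arrays, all but wild-type array 51 and knockout array 57), against a difference of -0.39 at 8 h (adjusted p = 0.031).

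**Figure D4:**
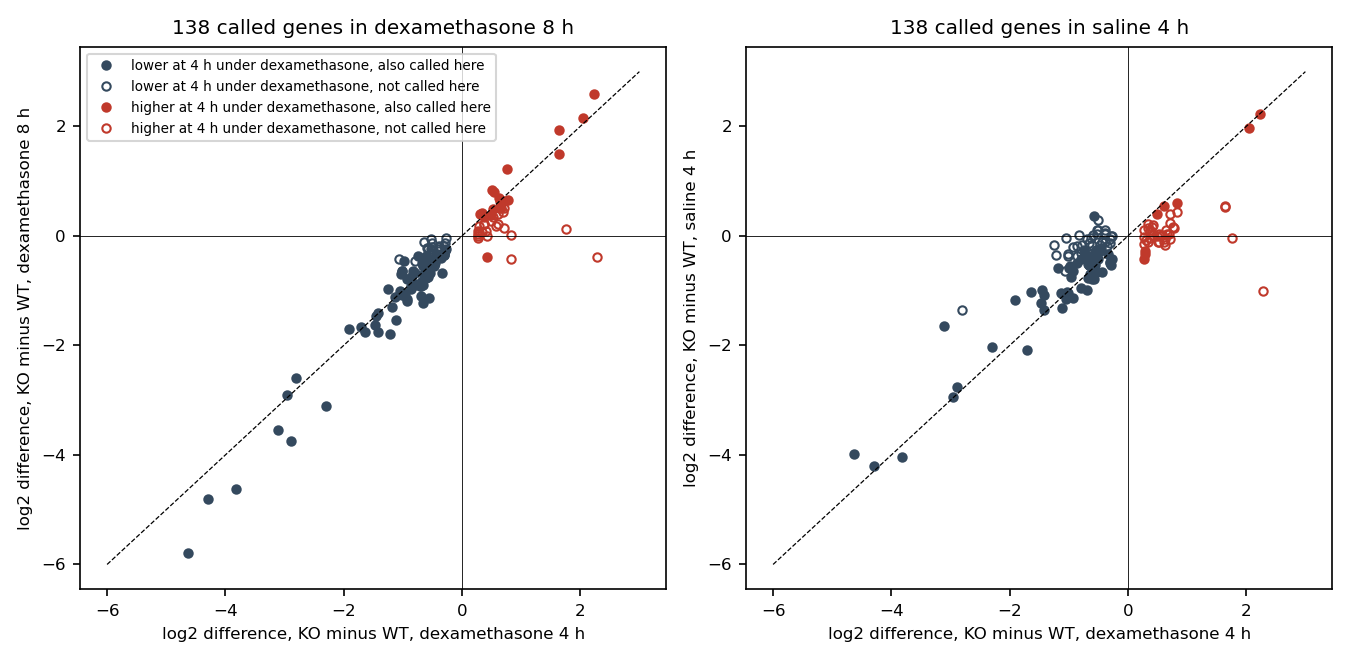
Each point is 1 of the 138 genes called at 4 h under dexamethasone; the x axis is that log2 difference, knockout minus wild type, and the y axis is the difference at 8 h of dexamethasone (left panel) or at 4 h of saline (right panel), with a dashed line where both are equal. All 95 lower genes lie below 0 at 8 h, and 83 of them do under saline.

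Under saline at 4 h, where 24.6% of all genes tested were called by genotype (5.98% higher, 18.6% lower), the values of the same genes were as follows. Of the 95 lower genes 83 were below 0 and 54 were called lower, and of the 43 higher genes 26 were above 0 and 5 were called higher, while 1 and 3 were called the opposite way. The change in genotype difference between the treatments was called for 54 of the 138 genes (30 lower, 24 higher), against 16.3% of all genes tested (13.2% upwards, 3.12% downwards). The 138 genes were chosen on the dexamethasone arrays that this change also uses, so a larger value under dexamethasone is built into the choice and nothing is read from that count. The knockout saline arrays differed from the others in the ratio of bright to dim probes of a gene, at -0.368 to -0.116 (log2), against -0.053 to 0.156 on the knockout and 0.006 to 0.135 on the wild-type dexamethasone arrays at 4 h. The part of that ratio in the saline differences was not tested.

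Single falls are set beside their saline values here. Klf15 differed by -2.94 under saline and Azgp1 by -4.20, close to their values under dexamethasone. Cbs differed by -1.65 under saline, and the further fall under dexamethasone was -1.47 (adjusted p = 0.0033, limma); Kyat3 differed by -1.17, with a further -0.74 (adjusted p = 0.0033). Cbs was at -5.62 to -4.82 in knockout with dexamethasone and -5.03 to -4.29 in knockout with saline, against -2.20 to -1.85 in wild type with dexamethasone and -3.14 to -2.81 in wild type with saline. Fah was at -0.27 to -0.13 in knockout with dexamethasone and 0.22 to 0.28 in knockout with saline, against 0.69 to 0.81 and 0.31 to 0.59 in wild type; its saline difference was -0.21 and the change was -0.72 (adjusted p = 0.0017).

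The other genes with the lowest p for the change from saline were chosen by that p, and their values are a description. Cbx2, a Polycomb chromobox protein, differed by -0.83 under dexamethasone and 0.01 under saline (change -0.84, adjusted p = 0.0023, limma), though its dimmest probe gave -0.02 under dexamethasone. Rbl2, a retinoblastoma-family repressor of cell-cycle genes, differed by -0.57 (adjusted p = 0.00271) and 0.36 (change -0.93, adjusted p = 0.0026), its other probe giving -0.48 under dexamethasone without passing, and Zfp275, a zinc-finger protein, by -0.86 and -0.19 (change -0.67, adjusted p = 0.0033). Peli1, a ubiquitin ligase of innate immune signalling, differed by 0.28 (adjusted p = 0.0197) and -0.42 (change 0.70, adjusted p = 0.00094), and Dapk2, a death-associated kinase, by 0.29 (adjusted p = 0.0348) and -0.32 (change 0.61, adjusted p = 0.0026). The dexamethasone calls of Peli1 and Dapk2 each ended without any of wild-type arrays 49, 51 and 52 and knockout arrays 57 and 58 (adjusted p up to 0.0902 and 0.163), and the other probe of Peli1 gave 0.03.

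**Figure D5:**
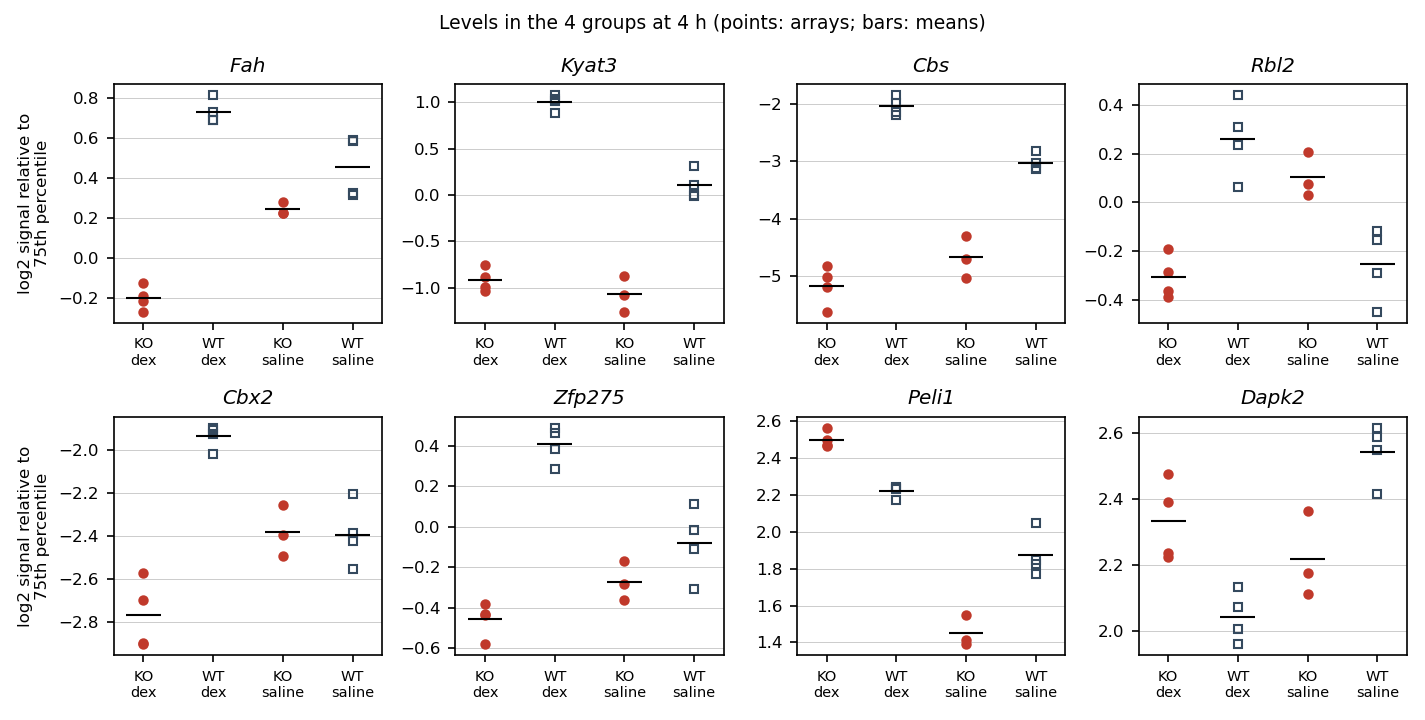
Points are arrays at 4 h, with knockout dexamethasone, wild-type dexamethasone, knockout saline and wild-type saline from left to right in each panel; the vertical axis is the log2 level (75th percentile of the array at 0). Fah, Cbx2 and Zfp275 show the knockout dexamethasone arrays below all wild-type dexamethasone arrays, with the saline groups closer together.

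How the called genes respond to the hormone in wild-type lung was read from the same 4 wild-type arrays against wild-type saline, so these values share arrays with the genotype comparison and are given side by side only. Of the 95 genes lower in knockout, 50 rose with dexamethasone in wild type, 6 fell and 39 were not called, where 14.4% of all genes tested rose and 22.2% fell. Of the 43 genes higher in knockout, 6 rose, 24 fell and 13 were not called. Because of the shared arrays nothing is read from these counts. Gnmt, for example, was 1.64 higher with dexamethasone than with saline in wild type, Abat 1.20 and Tango2 1.06, whereas Adhfe1 was at 0.04 and Slc13a4 at -0.21, neither called; Tango2 was chosen after its value was seen.

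The neighbourhood of Klf15 on chromosome 6 was looked at by position. Within 10 Mb on either side 147 genes were tested; 5 were lower, Klf15, Aldh1l1, Nat8f5, C87436 and Paip2b, and 1, Fbln2, was higher, against 0.899% of all genes called, and 38 had an unadjusted p under 0.05, against 10.4% of all genes. Paip2b, an inhibitor of the poly(A)-binding protein, differed by -0.38 (adjusted p = 0.0197; 0.0507 to 0.0793 without wild-type array 50 or 51 or knockout array 58 or 59) and C87436 by -0.30 (adjusted p = 0.0422; 0.117 to 0.208 without any of wild-type arrays 49, 51 and 52 and knockout arrays 58 and 59). Fbln2 and Aldh1l1 differed to a similar extent under saline, at 2.22 and -1.22. The labels do not describe the genetic background around the deleted gene, and its part in these neighbours cannot be told apart from that of the deletion.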

How the data were processed

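RNA of whole lung was hybridised to Agilent whole mouse genome arrays in 1 colour (Cy3). The deposited intensity is the processed signal of Feature Extraction, version 10.7.3.1 per the file headers and 10.6 per the submitters' processing notes, with background subtracted by that software. The series table deposited by the authors holds log2 values of the same arrays and was used only as an alternative. Here log2 signals were scaled to the 75th percentile of each array. Spots that the scanner software marked as outliers were left out, and 33931 probes were kept that stood well above background in 3 or more arrays of some group. Of 41174 probes, 24844 matched 1 gene by accession and 16330 matched none and were not analysed here. The brightest kept probe stood for a gene, which gave 15350 genes, 151 of them with a missing value in the 8 arrays. A mean per group was fitted on all 29 arrays with limma 3.58.1 in R 4.3.3, adjusted by Benjamini-Hochberg over all genes and tested on simulated data. Arrays limit the precision by their number.

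Named genes are Klf15, Nr3c1, Aass, Prodh and Mt2, the 12 largest rises and 12 largest falls called without overlap, up to 3 members per list of lowest p, called genes within 10 Mb of Klf15, and the 6 of lowest p for each difference from saline or 8 h; others are said to be chosen after their values were seen, or are members of a list described. Some results under this rule are not reported here. The 40 gene lists and the genes were chosen with earlier results of these data known. The scanner files hold no mean signal, so normexp was run on the median signal (offset 50).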

Additional observations from a re-analysis of the deposited data

Results flagged for a closer look

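In 112 sets of 4 values tested for an array far from the others, 3 were found, and chance alone gives about 1 in 20. Knockout array 57 read Angpt2 at -0.054, against 0.32 for the nearest of the other knockout arrays. Knockout array 58 had 0.671% of its spots marked as outliers, against 0.191% for the next. Wild-type array 50 read Fbln2 at 0.55, against -0.28 for the next wild-type array, and all 4 knockout arrays stayed above it.

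The genotype difference under dexamethasone at 4 h differed from the saline value at 4 h in 17 of 52 genes looked at, by the test of that difference (limma, adjusted over all genes), where 16.3% of all genes did. Some of the 52 were named for the lowest p of that same difference and most others for their values on the same dexamethasone arrays, so nothing is read from the count. Among the enzymes the change, dexamethasone minus saline, was -1.47 for Cbs (adjusted p = 0.0033), -0.74 for Kyat3 (adjusted p = 0.0033), -0.72 for Fah (adjusted p = 0.0017) and -0.36 for Gstz1 (adjusted p = 0.014). For Sfxn2 it was -0.61 (adjusted p = 0.011) and for Rrm2 -1.0 (adjusted p = 0.026). Among regulators it was -0.93 for Rbl2 (adjusted p = 0.0026), -0.84 for Cbx2 (adjusted p = 0.0023), -0.67 for Zfp275 (adjusted p = 0.0033), -0.48 for Nfkbib, an inhibitor of NF-kB (adjusted p = 0.0059), and -0.42 for Ppara (adjusted p = 0.034). In the other direction it was 0.80 for Slc38a4 (adjusted p = 0.0095), 0.70 for Peli1 (adjusted p = 0.00094), 0.65 for Itga11 (adjusted p = 0.025), 0.61 for Dapk2 (adjusted p = 0.0026) and 0.60 for Pcdh20 (adjusted p = 0.032). Nr3c1, not called under dexamethasone, changed by 0.48 (adjusted p = 0.017), its saline difference being -0.43. Between 4 h and 8 h of dexamethasone the difference of Bckdhb changed by 0.57 (adjusted p = 0.0017).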

How the results depend on the processing

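Across 24 alternatives no called gene changed sign, except with the dimmest probe of a gene, where Aldh4a1 gave 0.18, Mthfd1 -0.51 and Plekha7 0.10. Of the 138 genes 40 kept their call wherever they were tested (37 lower, and Fbln2, Cyp2c23 and Gap43 higher); 38 were tested in all 24, and Slc13a4 and Nat8f5 in 23, not with probes above background on all arrays. The number called was 265 with slide as a random block (115 higher, 150 lower; 137 of the 138 shared). It was 76 with median scaling (16 higher, 60 lower, so 78.9% lower against 68.8%). In a fit on the 8 arrays alone it was also 76 (46 lower), with 52 of the 138 shared. Higher genes numbered 28 in the deposited table, 85 with the share of probes above background as a covariate and 76 with the bright to dim ratio as one, and at least 2-fold genes 21 after normexp and quantile normalization. With slide as a fixed block 49 were higher and 115 lower. There, among the genes described, the calls of Mccc2, Dapk2, Paip2b, C87436, Cyp3a13 and Slc25a47 also ended (adjusted p 0.081, 0.065, 0.053, 0.203, 0.0521 and 0.0966), while Bcat2, Hmgcs1, Gstm2, Insr and Slc7a7 were called with either block. In the fit on the 8 arrays, which has fewer arrays to estimate the spread, the calls of Ppm1k, Ehhadh, Gpt, Mat1a, Mccc2, Mthfd1, Rbl2, Slc25a29, Tango2, Itga11, Fgg, Ntsr2 and Cftr were among those that ended. Median scaling ended those of Ehhadh, Fgg, Gpt, Klf10, Mat1a, Mccc2, Mthfd1, Slc43a1, Slc25a47, Dapk2, Peli1, Angpt2, Paip2b and C87436. The change from saline was called for 1136 genes after quantile normalization, 1516 with the mean of a gene's probes and 1506 with the dimmest; the change from 8 h for 2 with the fixed block, 9 with the random block, 3 after quantile normalization and 0 with mean or dimmest probes. Leaving out each array in turn gave 91 to 137 called genes (91 without wild-type array 51), 16 to 57 higher (16 without knockout array 58, 57 without wild-type array 50), 65 to 84 lower, 1300 to 3185 for the change from saline (1300 without knockout array 58) and 1 to 9 for that from 8 h (9 without wild-type array 52). The call of 72 genes held without any 1 array and that of 66 ended without at least 1 (34 lower, 32 higher). The causes were not tested. No paired analysis was possible because the groups compared share no replicate numbers.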

Other observations

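Called genes were also counted by position. On chromosome 12, 16 of 478 tested genes were called (3.35%; 5 higher, 11 lower), and on chromosome 6, 15 of 795 (1.89%), against 0.899% of all genes tested. Of the 138 called genes, 30 lay within 1 Mb of another called gene (21.7%), against 17.3% of all genes tested with a called gene that near. Some of these neighbours were lower together: Aldh6a1, Lin52 and Acot1, Prodh and Tango2, Slc25a29 and Slc25a47, and Azgp1 and Cyp3a13 are examples. Others differed in opposite directions, such as Rcor3 at -0.94 and Ints7 at 0.41, or were higher together, such as Ociad2 at 0.58 and Rasl11b at 0.52. Lin52, a subunit of the complex that controls cell-cycle genes with Rbl2, differed by -0.67, Tango2 by -0.45, Slc25a47, a mitochondrial carrier, by -0.48 (adjusted p = 0.0191; 0.0696 to 0.103 without any of wild-type arrays 49 and 51 and knockout arrays 58 and 59; 0.0966 with slide as a fixed block) and Cyp3a13, a cytochrome P450, by -0.65 (0.0521 with that block), knockout minus wild type on the log2 scale. All were chosen after their values were seen.

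Where a gene had a further probe, the dimmest probe had the same sign in 40 of 43 called genes (93%), against 66.1% of all 5420 genes with another probe. Both probes were read on the same arrays, and called genes were chosen for their differences there. A higher share is thus partly built in, and nothing is read from it.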
